A study of Mus musculus with 6 samples.

Results

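The IL-12, IL-18 and IL-23 receptor genes described here are 9 of the 19938 genes measured on whole-transcript arrays in sorted splenic T cells of 6 mice. They comprise 6 receptor chain genes (Il12rb1, Il12rb2, Il23r, Il27ra, Il18r1 and Il18rap) and 3 genes for the proteins that carry the signal inward (Jak2, Tyk2 and Stat4). The members were listed by name, with no threshold on measured values, and each of the 9 genes was represented by the 1 probe set that names it alone in the platform's probe table. Intraperitoneal injections, given on alternate days up to day 10 after transplantation, contained rapamycin at 1.5 mg/kg for 3 mice and phosphate-buffered saline (PBS) for the other 3; rapamycin blocks the kinase mTOR. All 6 were B6D2F1/J recipients that had been lethally irradiated and rebuilt with B6 bone marrow depleted of T cells, a parent-into-F1 transplant. Some recipients in the protocol also received B6 spleen cells, but which of these 6 did is not labelled, nor whether the sorted CD3+ cells came from donor or host. The labels call the 6 samples biological replicates and the design text gives 3 mice per group.

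IL-12 and IL-23 are secreted by dendritic cells and macrophages and share a ligand subunit and the receptor chain IL-12Rbeta1. IL-12Rbeta1 pairs with IL-12Rbeta2 to bind IL-12 and with IL-23R to bind IL-23; the kinases JAK2 and TYK2 sit on these chains, and STAT4 is the main factor activated by IL-12, which drives interferon-gamma production. IL-18 binds the chain encoded by Il18r1, and Il18rap encodes the accessory chain that completes the receptor and signals through MyD88. IL-27 uses the chain encoded by Il27ra together with gp130. Naive T cells carry little IL-12Rbeta2, and its induction on activated T cells is what makes them responsive to IL-12.

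Il12rb2 was the member with the largest difference, at a mean level 1.66-fold higher in rapamycin mice, and it was the only 1 of the 9 whose 95% interval excluded no difference before adjustment. Il18rap was 1.10-fold higher in rapamycin mice with no overlap between the groups, and Il23r was 1.37-fold higher with wide overlap. The other 6 genes differed by 1.04-fold or less. None of the 9 passed limma's moderated test at a threshold of 0.05 after Benjamini-Hochberg adjustment over all genes, where 0.00502% of all genes passed. At an unadjusted p under 0.05 it was 1 of 9 (Il12rb2, higher), against 4.67% of all genes, 1.6% higher and 3.07% lower. The rapamycin and PBS mice did not overlap for 2 of 9 members, both with rapamycin above, against 9.42% of all genes, 3.14% with rapamycin above and 6.28% with rapamycin below. Levels are given on the log2 scale, where 1 unit is a factor of 2, and differences are rapamycin minus PBS. In sorted cells measured in bulk, fewer cells of a type and less RNA per cell cannot be told apart.

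Il12rb2 and Il23r are neighbours on chromosome 6 in the RefSeq gene table (assembly GRCm38.p6), with no protein-coding gene between them, and Il18r1 and Il18rap are neighbours on chromosome 1. RefSeq promoter windows of 300 bases (250 before the start site and 50 from it on) matched 7 of the 9 members, in 10 windows. They were searched on both strands for the letters of 5 motifs: TTCNNNGAA, the palindrome that STAT factors bind, TGANTCA (AP-1), GGTGTGA (T-box), TGTGGT (RUNX) and AGGTCA (ROR). The first was in 2 of 10 member windows and in 8.3% of all 32851 windows, AP-1 letters were in 0 of 10 and 7.81%, T-box letters in 0 of 10 and 3.98%, RUNX letters in 2 of 10 and 16.8%, and ROR letters in 2 of 10 and 16.3%. The windows of Il12rb2, the member with the largest difference, of its neighbour Il23r, and of Il18r1, which differed little, are shown for comparison, 5′ to 3′ on the gene's strand, with motif matches in capitals.
Il12rb2, chr6:67376139-67376438, minus strand: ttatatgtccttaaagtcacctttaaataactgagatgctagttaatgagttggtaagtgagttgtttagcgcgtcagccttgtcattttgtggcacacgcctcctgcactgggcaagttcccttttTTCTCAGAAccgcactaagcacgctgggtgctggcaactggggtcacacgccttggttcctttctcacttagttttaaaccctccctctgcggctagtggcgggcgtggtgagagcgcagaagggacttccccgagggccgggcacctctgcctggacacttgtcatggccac
Il23r, chr6:67491806-67492105, minus strand: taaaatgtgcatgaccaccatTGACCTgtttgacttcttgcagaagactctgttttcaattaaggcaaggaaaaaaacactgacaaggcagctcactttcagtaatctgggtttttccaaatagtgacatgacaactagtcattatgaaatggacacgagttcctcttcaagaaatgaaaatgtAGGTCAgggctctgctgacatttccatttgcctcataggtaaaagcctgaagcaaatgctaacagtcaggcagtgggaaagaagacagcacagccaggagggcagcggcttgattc
Il18r1, chr1:40465756-40466055, plus strand: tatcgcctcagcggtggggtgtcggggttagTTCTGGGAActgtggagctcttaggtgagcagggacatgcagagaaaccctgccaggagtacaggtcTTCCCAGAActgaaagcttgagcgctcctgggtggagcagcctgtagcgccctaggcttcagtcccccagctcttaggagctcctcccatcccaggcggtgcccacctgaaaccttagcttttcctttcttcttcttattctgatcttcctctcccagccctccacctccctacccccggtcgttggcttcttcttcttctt
The Il12rb2 window holds 1 STAT palindrome, which begins 123 bases before the start site. The Il18r1 window shown, at the most downstream of its 3 listed start sites, holds 2, which begin 219 and 152 bases before that site. The other 2 windows of Il18r1 hold no STAT palindrome. The Il23r window holds 2 matches to the ROR letters and no STAT palindrome. No match in these 3 windows overlaps another. These matches describe the sequence alone; binding was not measured.

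Il12rb2 encodes the chain of the IL-12 receptor that recruits STAT4. It measured 10.78, 11.60 and 11.15 in rapamycin replicates 1, 2 and 3, against 10.42, 10.37 and 10.56 in PBS replicates 1, 2 and 3. Every rapamycin mouse lay above every PBS mouse; the PBS mice lay close together, and rapamycin replicate 2 was highest. The means were 11.18 ± 0.41 in rapamycin mice and 10.45 ± 0.09 in PBS mice (SD, n = 3 each). The difference was 0.73 (SE 0.18, 95% interval 0.32 to 1.14). In the limma fit its adjusted p was 0.814, and the unadjusted value was 0.0032. By p it ranked 78 of 19938 genes, and the size of its difference was at or above that of 99.8% of them. An exact two-sided permutation test over the 6 mice gave p = 0.1, the smallest that 3 against 3 can give. The spread among rapamycin mice was at or above that of 98.2% of genes, while the PBS spread was at or above that of 45.3% of genes.

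Il12rb1 encodes the chain shared by the IL-12 and IL-23 receptors. It measured 9.18, 9.43 and 9.26 in rapamycin replicates 1 to 3, against 9.19, 9.25 and 9.33 in PBS replicates 1 to 3. The groups lay across each other, with the lowest and the highest mouse both in the rapamycin group, and the difference was 0.03 (SE 0.09, 95% interval -0.17 to 0.24). Set against its partner chain within each mouse, the log2 ratio of Il12rb2 to Il12rb1 was 0.41, 0.97 and 0.70 above the PBS mean in rapamycin replicates 1 to 3, while PBS replicates 1 to 3 lay at 0.03, -0.07 and 0.04. The groups did not overlap in this ratio, and for 6.04% of all genes the ratio to Il12rb1 did not overlap either. A ratio within an array shows unequal change of the pair and not which chain changed.

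Il23r encodes the chain that makes a T cell responsive to IL-23, which sustains type 17 cells. It measured 6.18, 5.86 and 6.65 in rapamycin replicates 1 to 3, against 5.66, 6.31 and 5.34 in PBS replicates 1 to 3. PBS replicate 2 lay above 2 of the 3 rapamycin mice, and both groups spread widely. Rapamycin mice averaged 6.23 ± 0.40 and PBS mice 5.77 ± 0.49 (SD, n = 3 each), 0.46 apart (SE 0.26, 95% interval -0.14 to 1.06), and limma's adjusted p was 0.9998. These SDs were at or above those of 98.1% of genes in rapamycin mice and 99.5% in PBS mice. The difference was 0.25 without rapamycin replicate 3, 0.25 without PBS replicate 3 and 0.73 without PBS replicate 2. Il12rb2 and Il23r, although neighbours on the chromosome, did not follow the same mice: rapamycin replicate 2 was the highest of 6 for Il12rb2 and the lowest rapamycin mouse for Il23r.

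**Figure D1:**
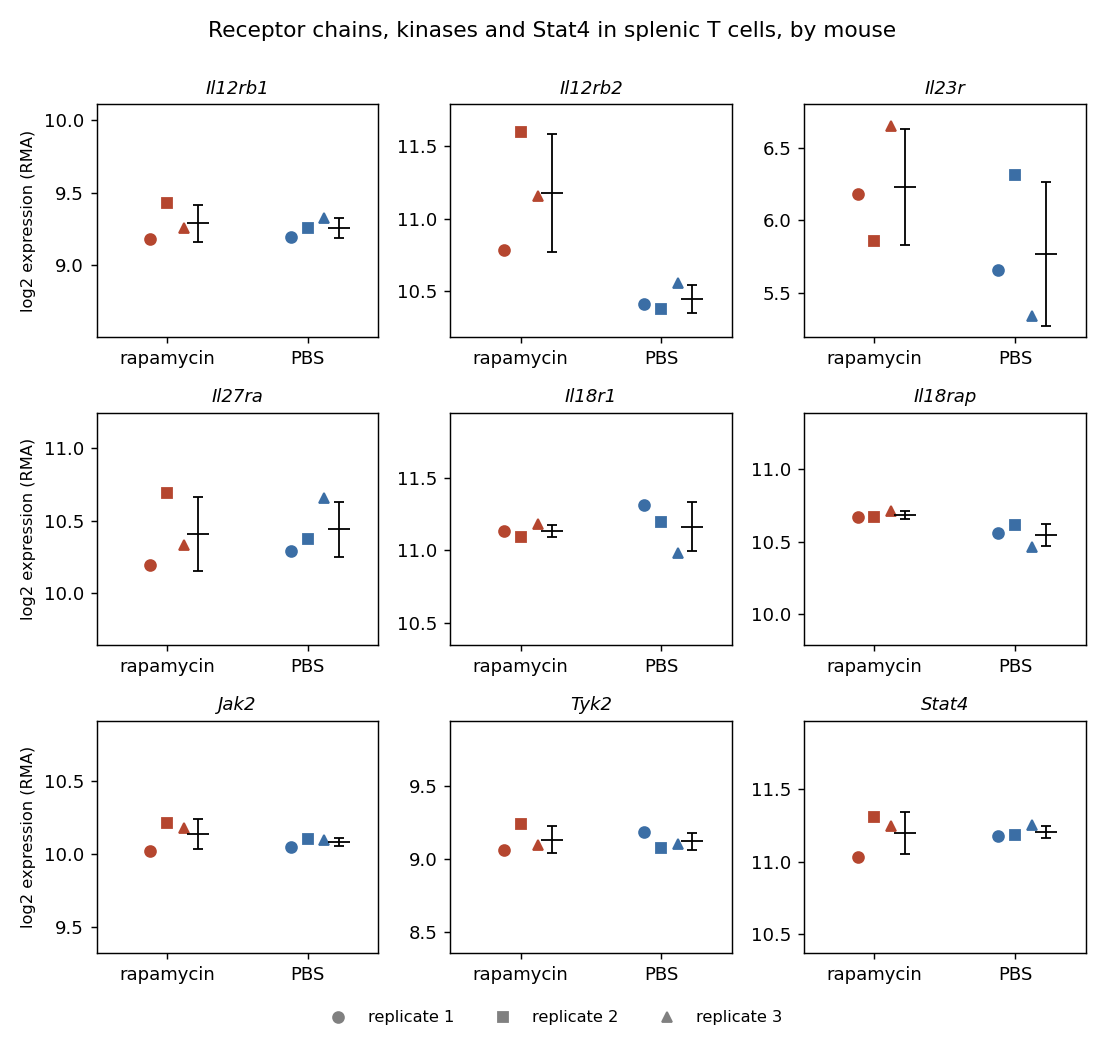
Log2 expression of the 9 genes in each mouse, rapamycin left and PBS right in each panel, with symbols for replicates and bars for the mean ± SD of 3 mice; every panel spans the same number of log2 units. The groups are apart in Il12rb2 and Il18rap, and the Il23r mice are spread widely in both groups.

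The IL-18 receptor chains differed by little. Il18r1, the ligand-binding chain, measured 11.13, 11.09 and 11.18 in rapamycin replicates 1 to 3, against 11.31, 11.19 and 10.98 in PBS replicates 1 to 3. The PBS mice lay on both sides of the rapamycin mice, and the difference was -0.03 (SE 0.10, 95% interval -0.25 to 0.19). Il18rap, the accessory chain, measured 10.67, 10.67 and 10.71 in rapamycin replicates 1 to 3, against 10.56, 10.62 and 10.46 in PBS replicates 1 to 3. Every rapamycin mouse lay above every PBS mouse, by a small margin. Means were 10.68 ± 0.03 in rapamycin mice and 10.55 ± 0.08 in PBS mice (SD, n = 3 each), 0.14 apart (SE 0.08, 95% interval -0.04 to 0.31). In the limma fit its adjusted p was 0.9998, and the unadjusted value was 0.105. The rapamycin mice lay close together in Il18rap, with an SD at or above that of 4.49% of genes. The log2 ratio of Il18rap to Il18r1 was 0.16, 0.19 and 0.15 above the PBS mean in rapamycin replicates 1 to 3, while PBS replicates 1 to 3 lay at -0.14, 0.04 and 0.10. This ratio did not overlap between the groups; the ratio to Il18r1 did not overlap for 3.62% of all genes.

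Il27ra, the IL-27 chain that pairs with gp130, measured 10.20, 10.69 and 10.33 in rapamycin replicates 1 to 3, against 10.29, 10.38 and 10.65 in PBS replicates 1 to 3. The groups overlapped throughout. The difference was -0.03 (SE 0.14, 95% interval -0.36 to 0.30), and its sign turned when rapamycin replicate 1 (0.07), rapamycin replicate 3 (0.0037) or PBS replicate 3 (0.07) was left out. The log2 ratio of Il27ra to Il6st, the gene of gp130, also overlapped between the groups, and differed by 0.10.

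The kinases and Stat4 were close to level. Jak2, the kinase on IL-12Rbeta2, measured 10.02, 10.22 and 10.18 in rapamycin replicates 1 to 3, against 10.05, 10.10 and 10.10 in PBS replicates 1 to 3. Tyk2, the kinase on IL-12Rbeta1, measured 9.07, 9.24 and 9.09 in rapamycin replicates 1 to 3, against 9.19, 9.08 and 9.10 in PBS replicates 1 to 3. Stat4 measured 11.03, 11.31 and 11.24 in rapamycin replicates 1 to 3, against 11.17, 11.18 and 11.25 in PBS replicates 1 to 3. For all 3 genes the groups overlapped, and the PBS mice lay inside the range of the rapamycin mice. The differences were 0.05 for Jak2 (95% interval -0.13 to 0.24), 0.01 for Tyk2 (-0.17 to 0.20) and -0.0079 for Stat4 (-0.22 to 0.20). With 3 mice per group, these intervals leave room for a difference of up to 0.24 log2.

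**Figure D2:**
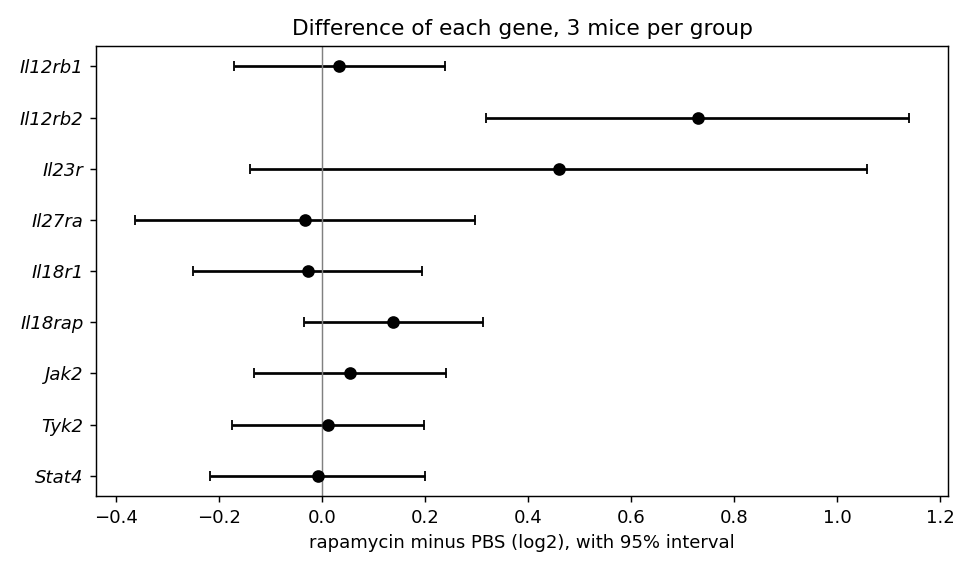
Difference of each gene, rapamycin minus PBS in log2, with its 95% interval from limma's moderated test on 3 mice per group. The Il12rb2 interval runs from 0.32 to 1.14 and lies to the right of 0, and the other 8 intervals include 0.

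The mice differed in these genes also within a group. Rapamycin replicate 2 was the highest of the 6 mice for 6 of the 9 genes (Il12rb1, Il12rb2, Il27ra, Jak2, Tyk2 and Stat4), whereas it was highest for 16.9% of all genes. Rapamycin replicate 1 was the lowest for 5 of the 9 (Il12rb1, Il27ra, Jak2, Tyk2 and Stat4), and for 23.0% of all genes. Among the 36 pairs of members, Jak2 and Stat4 had the most similar profiles over the 6 mice, with a mean absolute difference of 0.034 log2 between profiles centred on each gene's mean, followed by Il12rb1 with Jak2 (0.038) and Il12rb1 with Stat4 (0.041). Il12rb2 and Il23r, which varied more over the mice, differed by 0.44 in the same measure. Genes with little variation lie near each other in this measure whatever they do. Over all genes tested, those with the profile nearest to Il12rb2 were Apol10a (0.093), Upp1, an enzyme that splits uridine (0.111), the galectin Lgals7 (0.112), Dscam (0.114) and Cntln (0.122), in 6 arrays. Their own differences lay between 0.49 (Cntln) and 0.71 (Lgals7), and none passed the test over all genes. Because these genes were picked for their likeness to Il12rb2 in the same arrays, positive differences of that size follow from the choice.

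**Figure D3:**
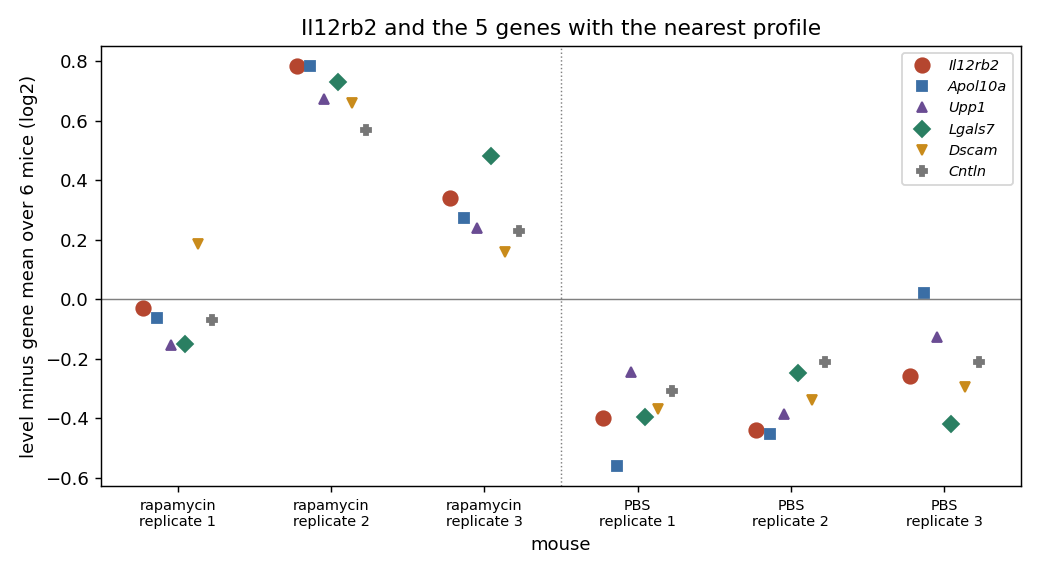
Level of Il12rb2 and of the 5 genes with the nearest profile, as log2 minus each gene's mean over the 6 mice, by mouse with rapamycin mice left and PBS mice right of the dotted line. All 6 genes are highest in rapamycin replicate 2, where Il12rb2 lies 0.78 above its mean. The other 5 were picked for this likeness in the same arrays.

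Genes of other cells were also measured in these samples, which had been sorted on CD3. The defining T cell gene Cd3e lay between 12.78 and 12.92 in rapamycin mice and between 12.82 and 12.92 in PBS mice. The mean of 10 T cell genes was 11.31, 11.51 and 11.36 in rapamycin replicates 1 to 3, against 11.32, 11.38 and 11.54 in PBS replicates 1 to 3. Among rapamycin mice, replicate 2 was thus highest in this mean too. Of these 10 genes 4 were positive, and Cd5 (-0.19, without overlap) alone had an unadjusted p under 0.05 in limma. Of 10 neutrophil genes, 10 had positive differences, from 0.04 to 0.66, where 44.7% of all genes were positive. Of these 10, 0 had an unadjusted p under 0.05 in limma and 0 were without overlap. Their mean was 10.23, 8.76 and 9.26 in rapamycin replicates 1 to 3, against 9.69, 9.35 and 8.04 in PBS replicates 1 to 3. The mouse with the lowest Il12rb2 among the rapamycin mice, replicate 1, thus had the highest neutrophil mean. With that mean as a covariate the Il12rb2 difference was 0.84 (SE 0.14), with an adjusted p of 0.169 in limma, and with the T cell mean as a covariate it was 0.77 (SE 0.13). Natural killer cells also carry IL-12 and IL-18 receptors. The mean of 9 natural killer genes ranged from 7.12 to 7.36 in rapamycin mice and from 7.07 to 7.57 in PBS mice, with 4 of 9 positive and a median difference of -0.02. At an unadjusted p under 0.05, 2 of the 9 were lower and none was higher, where 3.07% of all genes were lower and 1.6% higher. They were Ncr1 (-0.24), at low mean levels of 4.07 in rapamycin and 4.31 in PBS mice, and Itga2 (-0.65), with overlap. The 3 with the highest levels, Fcer1g (0.12), Klrc1 (0.06) and Tyrobp (0.24), had positive differences with overlap. Fcer1g (12.03) and Tyrobp (10.21) were highest in rapamycin replicate 3, as was the mean of the monocyte and macrophage genes (9.76). Which cells these transcripts came from was not tested. The mean of 7 B cell genes ranged from 5.54 to 5.66 in rapamycin mice and from 5.57 to 5.70 in PBS mice. Of these 7 genes 4 were positive, and Cd79b (-0.54, without overlap) alone had an unadjusted p under 0.05 in limma, at 0.00091. The mean of 7 monocyte and macrophage genes ranged from 8.82 to 9.76 in rapamycin mice and from 8.94 to 9.28 in PBS mice. Of these 7 genes 5 were positive, and Lyz2 (0.29, without overlap) alone had an unadjusted p under 0.05 in limma. For 8 dendritic cell genes the mean was 5.62 to 5.774 in rapamycin mice and 5.775 to 5.88 in PBS mice, so the groups all but touched. Of these 8 genes 2 were positive and 0 had an unadjusted p under 0.05. Itgax, the gene of this list with the highest level, differed by -0.38 with overlap. The mean of 7 basophil and mast cell genes ranged from 5.50 to 6.11 in rapamycin mice and from 5.30 to 5.85 in PBS mice, and that of 5 erythroid genes from 6.19 to 6.63 in rapamycin mice and from 5.97 to 6.33 in PBS mice. The part of these other cells in the receptor differences was not tested beyond the covariates given.

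The genes of the ligands and of the IL-18 inhibitor lay mostly on the positive side, with 6 of 7 measured genes positive and a median difference of 0.14. All genes had a median of -0.01 and 44.7% were positive. Of the 7, 1 had an unadjusted p under 0.05, against 4.67% of all genes. The groups did not overlap for 2 of the 7, against 9.42% of all genes. The same shares stand beside the counts of the lists that follow. The IL-27 subunit genes were among them. Il27 measured 7.64, 7.96 and 7.76 in rapamycin replicates 1 to 3, against 7.54, 7.52 and 7.62 in PBS replicates 1 to 3, with no overlap and a difference of 0.23 (SE 0.10). Ebi3, whose product is the other subunit of IL-27 and is also part of IL-35, measured 7.93, 8.78 and 8.33 in rapamycin replicates 1 to 3, against 7.78, 7.76 and 8.15 in PBS replicates 1 to 3, a difference of 0.45 (SE 0.20) with overlap. As for Il12rb2, rapamycin replicate 2 was highest for both, and it was highest for 16.9% of all genes. Il23a, the IL-23 subunit p19, differed by 0.14 without overlap, at low mean levels of 5.23 in rapamycin and 5.09 in PBS mice. Il18bp, a secreted inhibitor that captures IL-18, differed by 0.20 and Il18 by -0.23, both with overlap. The IL-12 subunit genes Il12a (0.10) and Il12b (0.03) were near level. None of the 7 passed over all genes.

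Shared signalling partners showed small differences. Of 3 measured partner genes, 1 was positive and 0 had an unadjusted p under 0.05 (median -0.13). Jak1, a kinase of the gp130 receptors, differed by -0.14 (SE 0.08), with every rapamycin mouse below every PBS mouse. Il6st differed by -0.13 (SE 0.10) and Stat3, the factor activated by IL-23, by 0.06 (SE 0.07), both with overlap. Of 11 measured negative regulators of JAK-STAT signalling, 5 were positive and 0 had an unadjusted p under 0.05, with a median of -0.02 and differences between -0.10 and 0.16. The adaptor Sh2b3 differed by -0.10, the phosphatase genes Ptprc and Ptpn1 by -0.09 and 0.10, and the STAT-induced inhibitor Cish by 0.16.

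In the IL-18 and IL-1 receptor pathway, 3 of 11 measured genes were positive, with a median of -0.06 and 1 gene at an unadjusted p under 0.05. That gene was Il1r2, a decoy receptor for IL-1 that lies in the same receptor gene cluster on chromosome 1 as Il18r1 and Il18rap. It measured 9.55, 9.96 and 10.08 in rapamycin replicates 1 to 3, against 9.75, 8.89 and 8.74 in PBS replicates 1 to 3. PBS replicate 1 stood inside the rapamycin range and the other two PBS mice below it, and the difference was 0.74 (SE 0.25, adjusted p = 0.982 in limma). Irak3, an inhibitory member of the IRAK family, differed by -0.32, the ubiquitin ligase Traf6 by -0.12 and the kinase Map3k7 by -0.08. The adaptor Myd88 differed by -0.07 (SE 0.13).

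**Figure D4:**
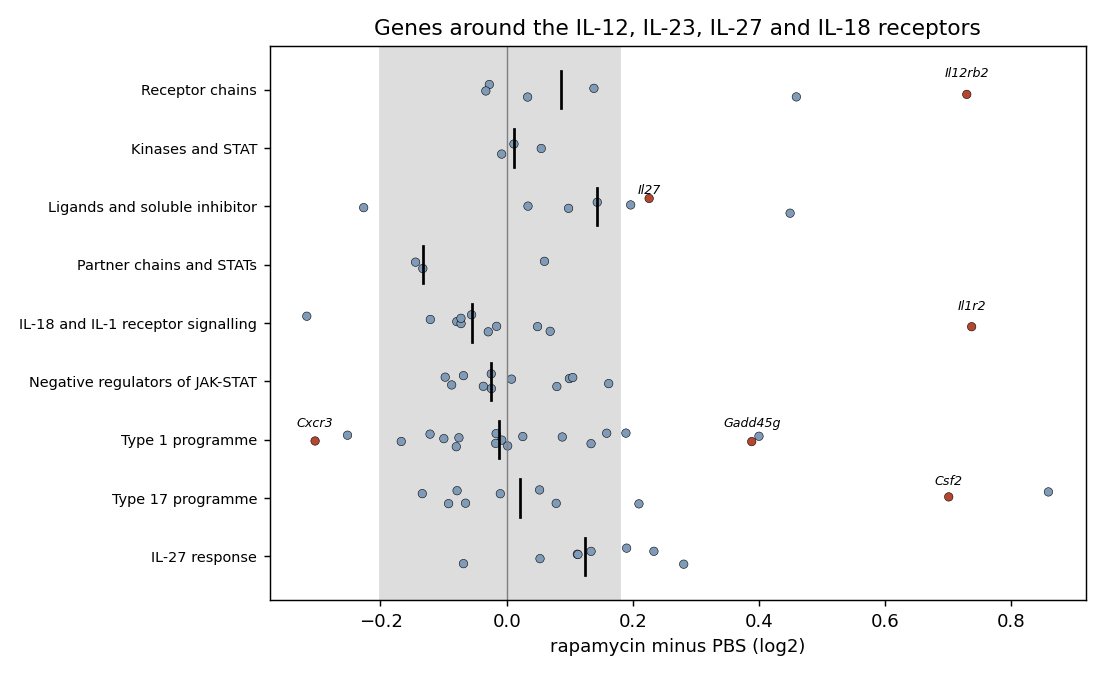
Difference of each measured gene, rapamycin minus PBS in log2, in the receptor and signalling genes and in the 7 lists of ligands, partners, regulators and response genes, with a black bar at the median of each list. Red points with names have an unadjusted p under 0.05, and the grey band spans the 5th to the 95th percentile of all genes (-0.20 to 0.18).

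In the type 1 programme, which holds genes that IL-12 and IL-18 are known to induce, 8 of 18 measured genes were positive, with a median of -0.01, and 1 was higher and 1 lower at an unadjusted p under 0.05. Ifng, the interferon-gamma gene, measured 10.27, 11.16 and 10.60 in rapamycin replicates 1 to 3, against 9.98, 10.19 and 10.66 in PBS replicates 1 to 3, with overlap and a difference of 0.40 (SE 0.24). Rapamycin replicate 2 was highest for Ifng, as for Il12rb2 and for 16.9% of all genes. Gadd45g, an activator of p38 signalling that IL-12 and IL-18 induce, differed by 0.39 (SE 0.15), and Cxcr3, a chemokine receptor of type 1 cells, by -0.30 (SE 0.10, adjusted p = 0.982 in limma). Tbx21, which encodes T-bet, the factor that directs the type 1 programme, differed by -0.08 (SE 0.09), and its relative Eomes by -0.25 (SE 0.17).

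Among type 17 genes, which IL-23 sustains, 5 of 10 measured were positive, with a median of 0.02 and 1 at an unadjusted p under 0.05. That gene, Csf2, encodes GM-CSF and measured 7.25, 8.21 and 7.33 in rapamycin replicates 1 to 3, against 6.78, 6.70 and 7.20 in PBS replicates 1 to 3. The groups did not overlap and rapamycin replicate 2 stood highest, at a difference of 0.70 (SE 0.25, adjusted p = 0.982 in limma). Il21 differed by 0.86 (SE 0.42) with overlap, Irf4 by 0.21 and Il17a, the defining cytokine gene of these cells, by -0.08 (SE 0.08). Of 8 measured genes of the IL-27 response, 7 were positive and 0 had an unadjusted p under 0.05, with a median of 0.12. Maf, a factor that drives Il10, differed by 0.28 (SE 0.17), the inhibitory receptor Lag3 by 0.23, Irf1 by 0.13 and Havcr2 by 0.11, each with overlap.

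The receptor differences depended on the mice to unequal degrees. The Il12rb2 difference lay between 0.52 (without rapamycin replicate 2) and 0.93 (without rapamycin replicate 1) when each mouse was left out in turn. Because its groups did not overlap, it could only be positive in these 6 fits. It passed the adjusted threshold in none of these 6 fits, nor in the other limma alternatives; over the 17 alternatives with an adjusted p, that value ran from 0.169 to 0.99998. The Il18rap difference lay between 0.10 and 0.17 in the same 6 fits and the Il23r difference between 0.25 and 0.73. Il12rb1, Il27ra, Il18r1, Tyk2 and Stat4, whose differences were all within 0.04 of 0, changed sign when a mouse was left out.

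**Figure D5:**
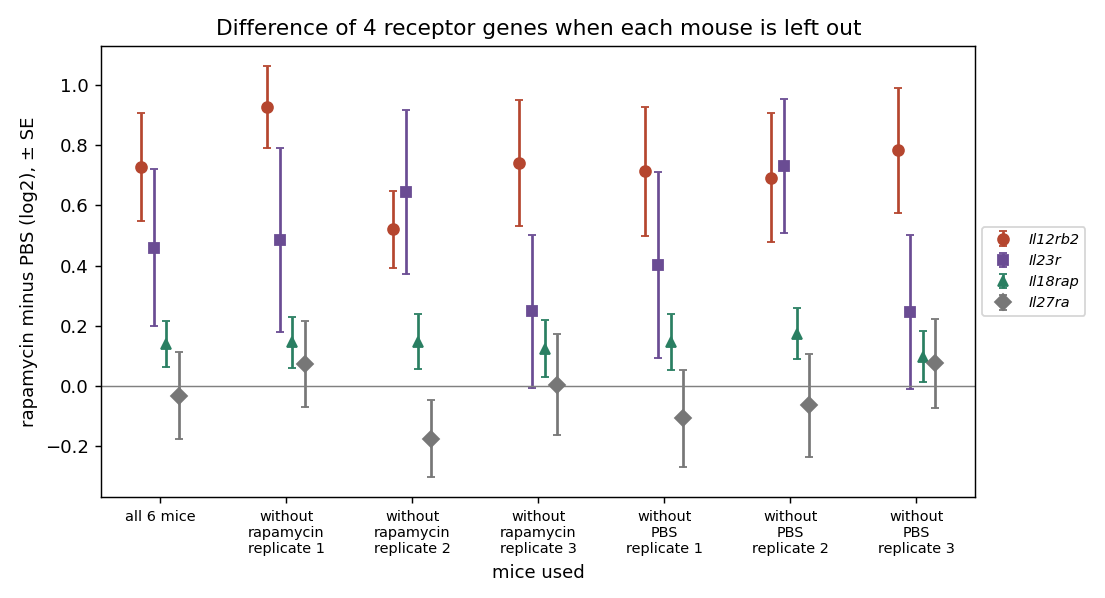
Difference of 4 receptor genes, rapamycin minus PBS in log2 with bars for the SE, with all 6 mice and with each mouse left out. Il12rb2 lies between 0.52 and 0.93 in the 6 reduced fits, Il18rap between 0.10 and 0.17 and Il23r between 0.25 and 0.73, and Il27ra lies on both sides of 0.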

How the data were processed

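The authors deposited log2 expression values of 35556 probe sets on 6 arrays, made with Affymetrix Expression Console and RMA per the submitters' processing notes; their versions were not given in the sources used here. RMA corrects background and gives all arrays the same probe intensity distribution, so a shift shared by most genes would not be seen, and low values are compressed. Array medians lay between 6.03 and 6.17. With 3 arrays in each group the median SE of a difference over all genes was 0.0955 log2, which limits the precision.

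Gene symbols came from the platform's probe table, in which 21789 probe sets name exactly 1 symbol, 1621 name several and 12146 are not listed there. The probe set with the highest mean represented each of 19938 genes, and each of the 9 members had 1 such probe set. Groups and replicate numbers came from the sample titles. The test was limma 3.58.1 in R 4.3.3 (group as the only term, two-sided, 8.44 degrees of freedom), with Benjamini-Hochberg adjustment over all genes, no filter on low values and a threshold of 0.05, and it was checked on simulated data. Single members were also tested by exact permutation over mice. Figures used Python 3.11.15 and matplotlib 3.10.9.

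The members and gene lists were chosen with earlier results of these data known, so list counts are descriptions and no set was tested. The text names all members, up to 4 genes of each pathway list with the smallest p, the ligands, Ifng, Tbx21, Il17a and Il6st as known partners, up to 3 of each marker list by level, and the 5 genes with the profile nearest to a member. Myd88, Cd5, Ncr1 and Itga2 fall outside this rule and were added once their values were known. Promoter sequences are those of RefSeq, GRCm38.p6. The alternatives were each mouse left out, a replicate block, array weights, trend and robust variance models, 2 other scalings, a filter on low values, other uses of probe sets, an exact test and 2 marker covariates.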

Additional observations from a re-analysis of the deposited data

How the results depend on the processing

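No member passed the adjusted threshold with all mice or in any of the limma alternatives (17 for each member, 16 for Il23r); the exact test over 6 mice cannot give a p below 0.1 and had no adjusted p. With all mice, 1 of 9, Il12rb2, had an unadjusted p under 0.05 in limma. The signs of Il12rb2, Il23r, Il18rap and Jak2 were kept in each alternative. Many alternatives could not turn a sign, because they leave the difference itself unchanged. These are the replicate block, the trend and robust variance models, the filter, the other uses of probe sets and the exact test. For Il12rb2 and Il18rap, whose groups did not overlap, leaving out a mouse could not turn the sign either. Il27ra became positive with array weights (0.0351), the T cell marker mean (0.00946) or the neutrophil marker mean as a covariate (0.0675). Stat4 became positive with array weights (0.0391), repeated quantile normalization (0.00721), median centring (0.00833), the T cell covariate (0.00725) and the neutrophil covariate (0.0344). With each mouse left out, the differences ranged from -0.0370 to 0.0874 for Il12rb1, -0.175 to 0.0743 for Il27ra, -0.117 to 0.0479 for Il18r1, -0.0415 to 0.0451 for Tyk2 and -0.0644 to 0.0736 for Stat4; the cause was not tested. Over the whole array 1 gene passed, against 0 with the replicate block, 2 with either covariate and 0 to 7 with a mouse left out (7 without rapamycin replicate 1). The filter on low values removed Il23r from the test. The labels do not state whether the shared replicate numbers pair the mice. Same-numbered mice had correlations of 0.0861, -0.192 and 0.195 in their deviations from the group means. Differently numbered mice had correlations from -0.438 to 0.365, so with 3 mice per group these values cannot settle a pairing. With the replicate block the Il12rb2 difference was 0.73 at an adjusted p of 0.635 in limma, within a range of 0.169 to 0.99998 over its alternatives. Detection against background was not analysed here, and low genes such as Il23r, Il12a, Il12b and Il23a may be compressed.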

Other observations

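The genes with the nearest profiles were also listed for Il23r, Il18r1 and Il18rap. For Il23r they were Chil4 (mean absolute difference of 0.144 log2 between centred profiles over 6 arrays), the chemokine receptor gene Cxcr4 (0.179), Zfp616 (0.185), Npr3 (0.186) and Orm1 (0.193). For Il18r1 they were Ptges3l (0.0102), Rab27a, a gene for granule release (0.0133), Mtrf1 (0.0165), Adam1b (0.0200) and Capn8 (0.0224). For Il18rap they were Rxfp2 (0.0135), Vmn1r35 (0.0192), Ndp (0.0201), Trappc3l (0.0209) and Hnrnpdl (0.0210). Genes with little variation over the mice lie near each other in this measure whatever they do.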
